A study of Danio rerio with 9 samples.

Results

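Transcripts of 10 heat shock genes were followed through 9 intestine libraries of zebrafish (Danio rerio). The genes were chosen by name: hsp70l, hsp90aa1.1, hsp90aa1.2, hsp90ab1, hspa8, dnajb1b, hspb1, hspd1, hspe1 and hsf1. All 10 names were found among the 26983 genes of the count and FPKM tables. Of these, 9 passed the filter on low counts and were tested among 19450 genes, and hsp90aa1.1 did not. The study, by its title, concerns gut inflammation brought on by soybean meal in zebrafish and its prevention or treatment with a shikonin ester, β,β-dimethylacryloyl shikonin. The libraries form 3 groups of 3, coded FM, SBM and D3. The labels give no strain, age, sex, dose, diet or duration for any group and do not spell out the codes. They do not say whether a library is 1 fish or a pool, so each p-value rests on the variation among these 9 samples alone, part of which may be technical.

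Heat shock proteins are molecular chaperones, which keep other proteins folded or help them refold. In the cytosol, Hsp70 proteins bind unfolded stretches in a cycle driven by ATP that J proteins start, and Hsp90 proteins take over partly folded clients such as kinases and hormone receptors. In the mitochondrial matrix, newly imported proteins fold inside the Hsp60 chamber, which is closed by Hsp10. Heat, oxidants and other insults that unfold proteins activate the transcription factor Hsf1, which switches on the inducible chaperone genes, while the constitutive ones are transcribed at all times. The intestinal epithelium turns over fast and meets food antigens and microbes, and inducible chaperones have been studied there in inflammation.

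The libraries held 34436497 to 36203230 counts and 22961 to 24472 detected genes each. Gut epithelium was present in every library: all 15 listed enterocyte genes exceeded 1 CPM (a count relative to the library total, scaled by TMM factors, which correct for library composition) in each, and together took 1.13 to 2.39% of the counts. Transcripts of other organs differed between libraries of 1 group. Oocyte markers, of which 14 of 15 were found and none was at 0, summed to 3652 CPM in SBM library 1 and 4203 CPM in D3 library 3. Their sum was 44.9 to 143 CPM in FM and 165 to 532 CPM in the other SBM and D3 libraries. Hepatocyte markers (16 of 17 found, none at 0) took 3.39% of the counts of SBM library 2 and, of D3, 1.79% in library 1 and 6.52% in library 2. They took 0.0487 to 0.363% elsewhere. Deviations from the group means correlated at 0.708 between SBM library 1 and D3 library 3 across genes, which are not independent replicates. These libraries stand apart within their groups, so values of several tested heat shock genes are given with and without them. In such bulk samples, fewer cells of a type and less RNA per cell cannot be told apart.

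Most of the heat shock transcripts came from the constitutive genes. FPKM, the deposited value scaled by gene length and library total, put hspa8, the constitutive cytosolic Hsp70, at 1154 to 1761 and hsp90ab1, the constitutive Hsp90, at 1012 to 1500. Their ranges overlapped, and both genes were among the 137 most abundant of 26983 in each library. They held 96.86% of all counts of the 10 genes. The mitochondrial pair followed far below, with hspe1 (Hsp10) at 25.1 to 62.5 FPKM and hspd1 (Hsp60) at 15.4 to 62.2 FPKM, and the J protein gene dnajb1b stood at 11.8 to 37.7 FPKM. These 3 ranges overlapped. The small heat shock protein gene hspb1 was at 5.01 to 8.16 FPKM, the Hsp90 gene hsp90aa1.2 at 2.75 to 11.2, and hsf1 at 2.34 to 3.58. The inducible hsp70l lay at 0.518 to 3.59 FPKM, overlapping hsf1, and hsp90aa1.1 was lowest at 0.0117 to 0.307 FPKM.

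**Figure D1:**
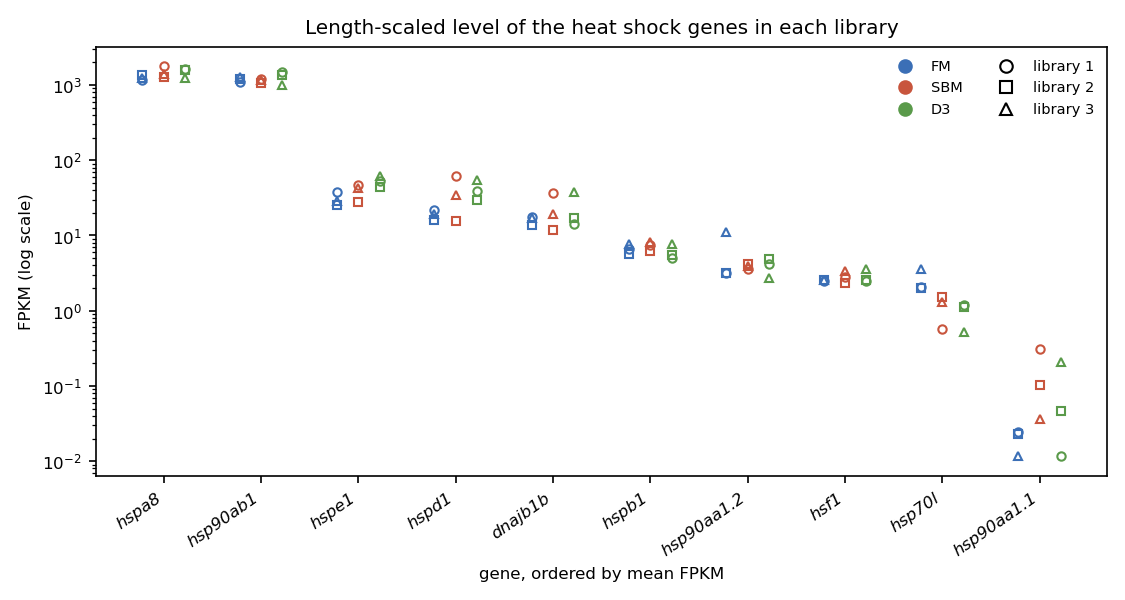
FPKM of the 10 heat shock genes in each of the 9 libraries on a log axis, with genes ordered by their mean, colours for the groups and symbols for library numbers. The genes hspa8 and hsp90ab1 lie above 1000 in every library, and hsp90aa1.1 lies below 1.

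In the comparison of SBM with FM, edgeR called 0 of the 9 tested heat shock genes at an adjusted p under 0.05, against a background of 0% of 19450 genes. At an unadjusted p under 0.05 it was 1 of 9, hsp70l (background 8.94%), and DESeq2 called 0 of 9, with no adjusted p for hsp70l, and 238 genes in all. The median log2 fold change of the 9 genes was −0.10, beside −0.01 over all tested genes, with 3 values positive and 6 negative. The groups did not overlap for 1 of the 9, hsp70l, which was lower in SBM (10.3% of all tested genes were lower without overlap and 9.56% higher). In the comparison of D3 with SBM, edgeR again called 0 of 9 (background 0%), with 0 of 9 at an unadjusted p under 0.05 (background 2.07%). DESeq2 called 0 of 9 and 5 genes in all. The median was 0.01 beside 0.03 over all tested genes, and hspe1, higher in D3, was the 1 member whose groups did not overlap in CPM, though they did in FPKM (2% of all tested genes were higher without overlap and 2.56% lower). In D3 against FM, edgeR called 0 of 9 (background 0%), with hspe1 and hsp70l as the 2 of 9 at an unadjusted p under 0.05 (background 15.2%). DESeq2 called 0 of 9 and 918 genes in all. The median was −0.09 beside 0.04. Here hspd1 and hspe1 were higher without overlap (background 12.8%) and hsp70l was lower without overlap (background 13.6%). SBM against FM and D3 against FM share the FM libraries, so their values are given side by side and are not independent.

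**Figure D2:**
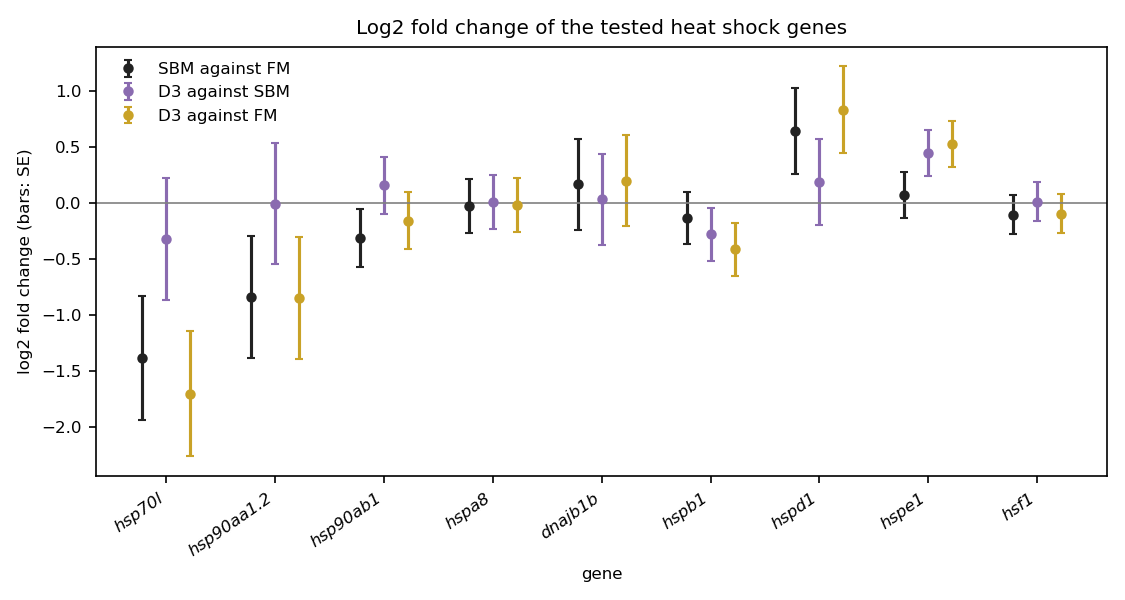
Log2 fold change with its standard error for the 9 tested heat shock genes in the 3 comparisons, from edgeR fits of all 9 libraries. The lowest values are those of hsp70l, −1.38 in SBM against FM and −1.70 in D3 against FM, and the highest is that of hspd1 in D3 against FM, 0.83.

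The transcription factor gene hsf1, whose protein drives the heat shock response, was among the steadiest genes in CPM scaled by TMM. Its level was 16.9, 16.9 and 18.2 CPM in the FM libraries, 14.8, 16.7 and 16.9 CPM in SBM, and 14.7, 15.3 and 18.8 CPM in D3. The groups overlapped, and the coefficient of variation over the 9 libraries was 8.6%, lower than in all but 1.13% of tested genes, where the median was 34.4%. In FPKM, where no TMM factor enters, hsf1 spanned 2.46 to 2.58 in FM, 2.34 to 3.36 in SBM and 2.48 to 3.58 in D3. Its log2 fold change was −0.10 ± 0.17 (SE) in SBM against FM and −0.09 ± 0.17 in D3 against FM, both positive with library size scaling (0.17 and 0.19), and 0.01 ± 0.17 in D3 against SBM. The edgeR adjusted p was 0.80, 0.79 and 1.

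The constitutive Hsp70 gene hspa8 stood at 3059, 3497 and 3396 CPM in FM, 3529, 3542 and 2707 CPM in SBM, and 3750, 3633 and 2462 CPM in D3. In CPM, library 3 of SBM and library 3 of D3 were below FM, and the other 4 were above it. In FPKM, no SBM or D3 library lay below the FM range of 1154 to 1376. There SBM library 3 (1396) lay above FM, while SBM library 2 (1283) and D3 library 3 (1220) lay within it. Group means were 3317 ± 230 CPM in FM, 3259 ± 478 CPM in SBM and 3282 ± 712 CPM in D3 (SD, n = 3 each). The log2 fold change was −0.03 ± 0.24 in SBM against FM and −0.02 ± 0.24 in D3 against FM, which library size scaling turned to 0.23 and 0.24. It was 0.01 ± 0.24 in D3 against SBM, and the edgeR adjusted p was 0.97, 0.98 and 1. In CPM, the 3 highest libraries for hspa8, D3 libraries 1 and 2 and SBM library 2, were those highest in hepatocyte markers. The Spearman coefficient of hspa8 with summed hepatocyte markers was 0.867 over the 9 libraries. In FPKM, SBM library 1 (1761) was the highest. The part of hepatocyte content in the hspa8 values was not tested. Without the 3 libraries highest in hepatocyte markers, the D3 against SBM value turned negative, as given at the end. Library 3 was then the 1 D3 library left.

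The constitutive Hsp90 gene hsp90ab1 was at 3389, 3573 and 4044 CPM in FM, 2773, 3438 and 2648 CPM in SBM, and 3967, 3552 and 2361 CPM in D3. The lowest CPM was that of D3 library 3, and SBM libraries 3 and 1 followed. In FPKM, D3 library 3 (1012) was still the lowest, but SBM library 2 (1077) and FM library 1 (1106) followed. SBM against FM gave a log2 fold change of −0.31 ± 0.26 (edgeR adjusted p = 0.61) and D3 against SBM gave 0.16 ± 0.26 (edgeR adjusted p = 1). For D3 against FM it was −0.16 ± 0.26 (edgeR adjusted p = 0.76), and it turned to 0.10 with library size scaling and to 0.03 without the 2 libraries highest in oocyte markers.

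The inducible Hsp70 gene hsp70l, which is low in most unstressed zebrafish tissues and rises sharply on heat shock, had its highest values in FM. It was at 5.41, 5.07 and 9.61 CPM in the FM libraries, which rest on 164, 168 and 297 counts. The SBM libraries held 1.11, 4.15 and 2.46 CPM and the D3 libraries 2.66, 2.49 and 1.03 CPM, from 43 to 127 counts. Every SBM and D3 library lay below every FM library. Means were 6.70 ± 2.53 CPM in FM, 2.58 ± 1.52 CPM in SBM and 2.06 ± 0.90 CPM in D3 (SD, n = 3 each). The log2 fold change was −1.38 ± 0.55 in SBM against FM (edgeR unadjusted p = 0.035, adjusted p = 0.54). It was −1.70 ± 0.56 in D3 against FM (edgeR unadjusted p = 0.015, adjusted p = 0.32), where DESeq2 gave an adjusted p of 0.061. In D3 against SBM it was −0.32 ± 0.55 (edgeR adjusted p = 1). Leaving out each library in turn moved the SBM against FM value between −1.91 and −1.03 and the D3 against FM value between −1.94 and −1.35. Without the 2 libraries highest in oocyte markers the values were −1.003 and −1.38 (edgeR adjusted p = 0.50 and 0.23). Without the 3 highest in hepatocyte markers they were −1.90 and −2.77 (edgeR adjusted p = 0.11 and 0.063), with library 3 as the 1 D3 library left, assumed to vary like the other groups. That library was the highest in oocyte markers and the lowest in hsp70l.

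In CPM, the libraries ordered by hsp70l were in exactly the reverse order of the libraries by summed oocyte markers, both between and within groups. In FPKM the order was not exact. There SBM library 3 (1.289) lay above D3 library 1 (1.178) and D3 library 2 (1.109), although it was higher in oocyte markers. FM library 3 had the lowest oocyte sum (44.9 CPM) and the highest hsp70l, and D3 library 3 had the highest oocyte sum (4203 CPM) and the lowest hsp70l. Of 19450 tested genes, 2 (0.0103%) had this exact reverse order and 287 (1.48%) had a Spearman coefficient at or below −0.9 over the 9 libraries, a pattern looked up after the values were seen. The broader pattern, with SBM library 1 and D3 library 3 both below the other 7 libraries, held for hsp70l and for 19.4% of all tested genes. The libraries share their composition across all these genes, and the part of oocyte content in the hsp70l difference was not tested. Immediate early genes, which mark rapid transcriptional responses to stimuli, also separated FM from the rest. Of 23 listed, 22 were found, and their sum was 570 to 638 CPM in FM, 335 to 435 CPM in SBM and 317 to 481 CPM in D3, with fosaa at 0 in FM libraries 1 and 2 and D3 library 1. Enterocyte markers, all 15 found and none at 0, took 1.85 to 2.39% of the counts in FM, 1.28 to 1.60% of those in SBM and 1.13 to 1.84% of those in D3, without overlap with FM. Exocrine pancreas markers, all 16 found and none at 0, took 14.02 to 18.06% in FM, 11.32 to 15.78% in SBM and 7.77 to 14.05% in D3, with overlap. In CPM their sum was 152600 to 205000 in FM and 75840 to 121500 in D3, without overlap. In SBM it was 94090 to 186500 CPM, overlapping FM. Smooth muscle markers, of which 12 of 13 were found, took 0.130 to 0.164% in FM, 0.113 to 0.151% in SBM and 0.100 to 0.126% in D3, overlapping between FM and SBM, with desma at 0 in SBM library 2. Of the 11 tested, 5 in SBM against FM and 6 in D3 against FM were lower without overlap (10.3% and 13.6% of all tested genes). In the same 2 comparisons, 7 and 7 of 21 tested immediate early genes were lower without overlap. So were 6 and 6 of 15 enterocyte genes, with 1 higher in each, and 2 and 11 of 16 exocrine pancreas genes. The part of these 4 lists in the hsp70l difference was not tested.

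**Figure D3:**
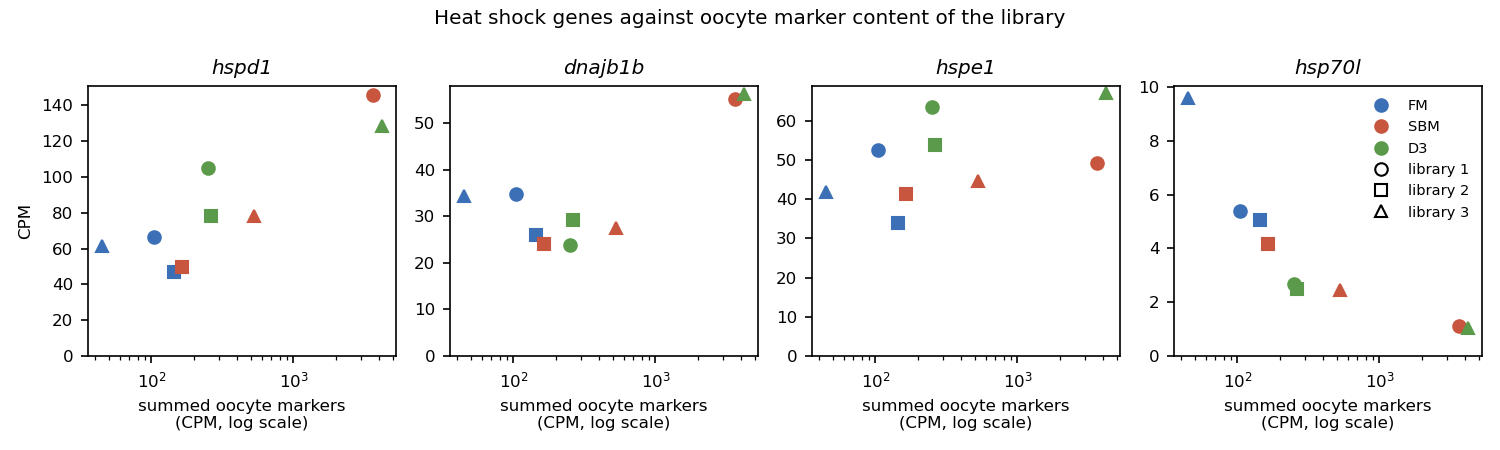
CPM of hspd1, dnajb1b, hspe1 and hsp70l in each library against the library's summed oocyte markers, on a log axis, with colours for groups and symbols for library numbers. The 2 libraries at the right, SBM library 1 and D3 library 3, are the highest for hspd1 and dnajb1b and the lowest for hsp70l.

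The inducible Hsp70 genes hsp70.1 and hsp70.3 were highest in FM library 3 as well. The gene hsp70.1 was at 5.51, 3.11 and 20.9 CPM in FM, 2.78, 4.31 and 0.957 CPM in SBM, and 2.60, 2.46 and 6.30 CPM in D3. FM library 3 stood 3.32 times above the next library, and the remaining FM libraries lay within the range of SBM and D3. The gene hsp70.3 was at 3.89, 1.78 and 13.2 CPM in FM, 1.96, 2.58 and 0.981 CPM in SBM, and 1.27, 1.29 and 0.887 CPM in D3. All 3 D3 libraries lay below FM. Its log2 fold change in D3 against FM was −2.45 ± 0.72, with an edgeR adjusted p of 0.32, while DESeq2 called it at an adjusted p of 0.028. These Hsp70 genes are close copies, and how reads shared between them were counted is not given in the sources used here, so the split between hsp70.1, hsp70.3 and hsp70l is uncertain.

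The Hsp90 gene hsp90aa1.2, one of the paired cytosolic Hsp90 alpha genes of zebrafish, showed the same single high library. It was at 8.57, 8.37 and 31.5 CPM in FM, 7.33, 11.9 and 7.87 CPM in SBM, and 9.89, 11.3 and 5.73 CPM in D3. Apart from FM library 3, the groups overlapped in CPM. The 2 lowest libraries for hsp90aa1.2 in CPM, D3 library 3 and SBM library 1, were those highest in oocyte markers. Both lay below the other 7 libraries for 19.4% of all tested genes. In FPKM, D3 library 3 (2.745) was still the lowest. There SBM library 1 (3.539) lay above FM library 1 (3.129) and FM library 2 (3.184), as did the other SBM libraries. The log2 fold change was −0.84 ± 0.54 in SBM against FM and −0.85 ± 0.54 in D3 against FM (edgeR adjusted p = 0.57 and 0.42). Without FM library 3 the values turned to 0.08 and 0.08. In D3 against SBM the value was −0.01 ± 0.54 (edgeR adjusted p = 1). FM library 3 exceeded the next library by over 1.5 times for hsp70l (1.78 times) and hsp90aa1.2 (2.65 times) among the 9 tested members, and for hsp70.1, hsp70.3 and the alpha-crystallin gene cryabb (4.17 times) among 121 other tested chaperone genes. Over all tested genes it did so for 0.766%. The other members were not set apart there: hspb1 was 1.19 and hsp90ab1 1.02 times the next library, and the remaining 5 were highest elsewhere. This pattern was counted after the values were seen.

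**Figure D4:**
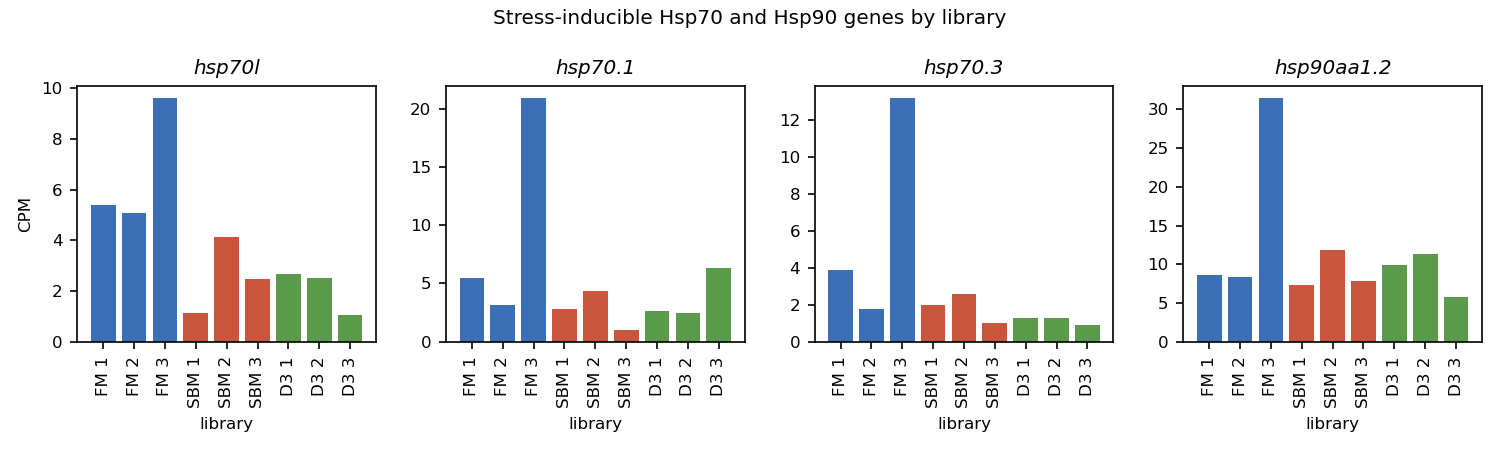
CPM of hsp70l, hsp70.1, hsp70.3 and hsp90aa1.2 in each library, as bars from 0 coloured by group. FM library 3 is highest in each panel, and all 3 FM libraries exceed SBM and D3 for hsp70l alone of the 4.

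The neighbouring gene hsp90aa1.1, which in zebrafish folds myosin in skeletal muscle, was near the limit of detection. The FM libraries held 2, 2 and 1 counts of it, the SBM libraries 26, 9 and 3, and the D3 libraries 1, 4 and 18. In CPM, all 3 SBM libraries lay above FM, narrowly for library 3 (0.0718 against at most 0.066 CPM), and D3 overlapped both. The 2 highest libraries, SBM library 1 and D3 library 3, were those highest in oocyte markers. No fold change of hsp90aa1.1 was taken without them. Skeletal muscle markers were low throughout, with 22 of 23 found, sums of 10.9 to 21.7 CPM in FM, 13.9 to 18.1 CPM in SBM and 6.52 to 12.0 CPM in D3, and the fast myosin gene myhz2 at 0 in every FM and SBM library and in D3 library 1. With no filter on low counts its log2 fold change in SBM against FM was 2.54 ± 1.11 (edgeR unadjusted p = 0.046, adjusted p = 0.60), and the edgeR adjusted p was 1 in D3 against SBM and 0.49 for D3 against FM.

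The J protein gene dnajb1b, whose product stimulates the ATPase of Hsp70, was highest in the libraries high in oocyte markers. It was at 34.8, 26.0 and 34.5 CPM in FM, 55.3, 24.1 and 27.6 CPM in SBM, and 23.8, 29.1 and 56.4 CPM in D3. SBM library 1 and D3 library 3 were the highest of the 9, and the other 7 spanned 23.8 to 34.8 CPM. SBM against FM gave a log2 fold change of 0.17 ± 0.41 and 0.20 ± 0.41 in D3 against FM (edgeR adjusted p = 0.87 and 0.81). Without these 2 libraries the values were −0.28 and −0.27. D3 against SBM gave 0.03 ± 0.41 (edgeR adjusted p = 1). The small heat shock protein gene hspb1, whose product holds unfolding proteins without ATP, was at 7.06, 5.77 and 8.42 CPM in FM, 6.10, 6.86 and 6.39 CPM in SBM, and 4.62, 5.04 and 6.28 CPM in D3. D3 held the 2 lowest libraries, and the groups overlapped. Its log2 fold change was −0.13 ± 0.23 in SBM against FM, turned to 0.14 by library size scaling, −0.28 ± 0.23 in D3 against SBM, and −0.41 ± 0.23 when D3 was set against FM. The edgeR adjusted p was 0.81, 1 and 0.38.

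The mitochondrial chaperonin genes hspd1 and hspe1, which neighbour each other on the RefSeq assembly GRCz12tu, were highest in D3 on average. The Hsp10 gene hspe1 was at 52.6, 33.9 and 41.9 CPM in FM, 49.3, 41.2 and 44.6 CPM in SBM, and 63.6, 53.7 and 67.2 CPM in D3. Every D3 library exceeded every SBM and FM library in CPM, while SBM and FM overlapped. In FPKM, which is scaled by library total, D3 still lay above FM but overlapped SBM, with 44.3 in D3 library 2 and 46.2 in SBM library 1. Means were 42.8 ± 9.35 CPM in FM, 45.0 ± 4.03 CPM in SBM and 61.5 ± 6.94 CPM in D3 (SD, n = 3 each). The log2 fold change was 0.45 ± 0.20 in D3 against SBM (edgeR unadjusted p = 0.057, adjusted p = 1). In D3 against FM it was 0.52 ± 0.20 (edgeR unadjusted p = 0.032, adjusted p = 0.32). In SBM against FM it was 0.07 ± 0.20 (edgeR adjusted p = 0.88). Leaving out each library in turn moved the D3 against SBM value between 0.36 and 0.53, and without the 2 libraries highest in oocyte markers it was 0.42.

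The Hsp60 gene hspd1 was at 66.7, 47.0 and 61.5 CPM in FM, 146, 49.8 and 78.0 CPM in SBM, and 105, 78.0 and 129 CPM in D3. SBM spanned the widest range: its library 2 lay within FM and its library 1 was the highest of all. Each D3 library lay above every FM library. The log2 fold change was 0.83 ± 0.39 in D3 against FM (edgeR unadjusted p = 0.062, adjusted p = 0.34). It was 0.64 ± 0.39 in SBM against FM and 0.19 ± 0.38 in D3 against SBM (edgeR adjusted p = 0.55 and 1). Without the 2 libraries highest in oocyte markers, which were also the 2 highest for hspd1, the values were 0.64 in D3 against FM and 0.16 in SBM against FM (edgeR adjusted p = 0.32 and 0.92). Per length, the FM libraries had ratios of hspd1 to hspe1 FPKM of 0.578, 0.631 and 0.668, the SBM libraries 1.35, 0.550 and 0.796, and the D3 libraries 0.752, 0.660 and 0.872. SBM library 1 was the 1 library where hspd1 exceeded hspe1.

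**Figure D5:**
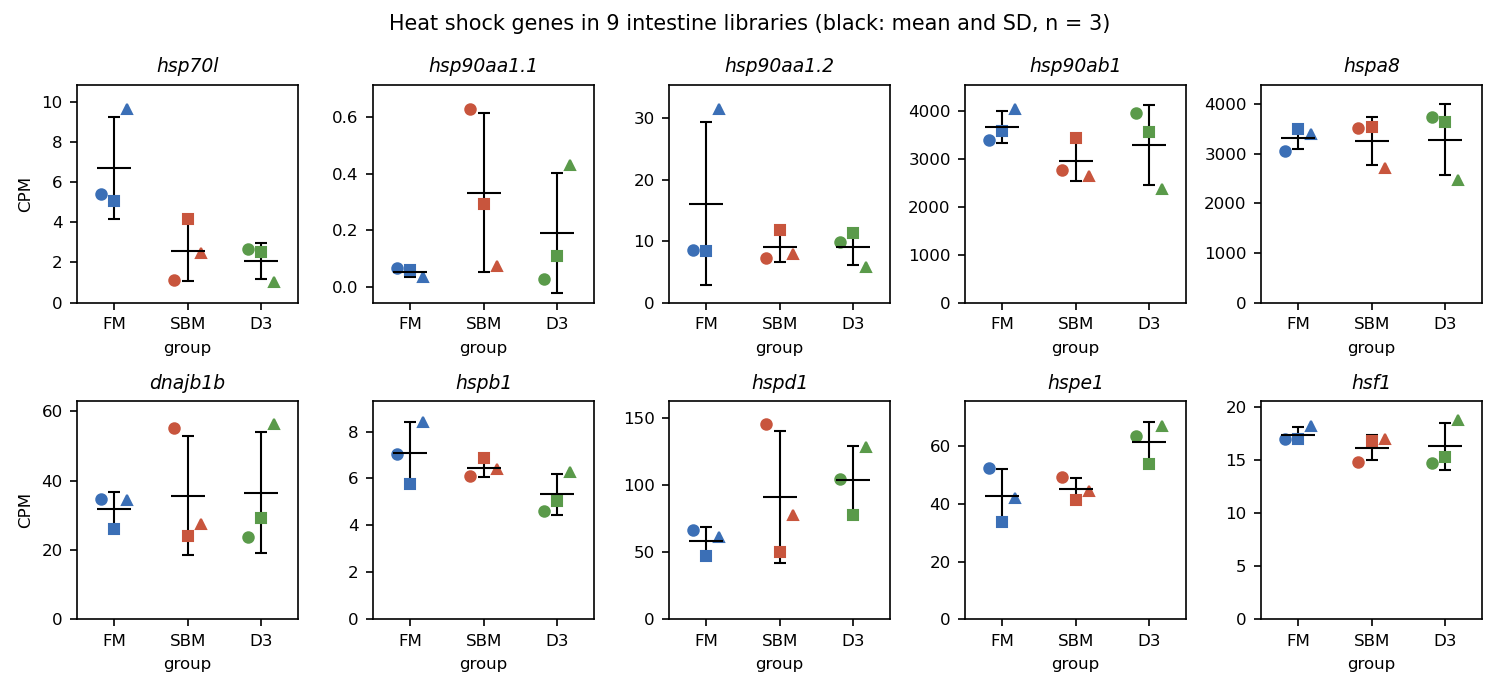
CPM of each of the 10 heat shock genes by group, with a symbol for each library and the mean and SD (n = 3) in black, with each axis starting at 0, or below it for hsp90aa1.1. All D3 libraries lie above all others for hspe1 (in FPKM they overlap SBM), all FM libraries lie above all others for hsp70l, and hsf1 stays between 14.7 and 18.8 CPM.

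Other genes of the folding machinery were taken from 7 lists of chaperones and co-chaperones, with 121 tested genes beside the members. edgeR called 0 of them in each comparison. At an unadjusted p under 0.05 it found 3 higher and 3 lower in SBM against FM, 1 higher in D3 against SBM, and 4 higher and 8 lower for D3 against FM. In either direction these were 6, 1 and 12 of the 121, against 8.94%, 2.07% and 15.2% of all tested genes. The median log2 fold change was 0.02, 0.08 and 0.14, beside −0.01, 0.03 and 0.04 over all tested genes. Groups did not overlap for 14.9%, 4.13% and 24% of the 121, against 19.9%, 4.56% and 26.4% of all tested genes. SBM library 1 and D3 library 3 both exceeded the other 7 libraries for 35.5% of the 121, against 27.3% of all tested genes. Counts and medians of the lists used all 9 libraries and were not taken without those 2 libraries. DESeq2 called 0 of the 121 in SBM against FM, and 0 in D3 against SBM. In SBM against FM it gave no adjusted p for 6891 of 19450 genes, which could not be called. Several of the 121 were among them, such as hsf2bp and hsp70.3 (DESeq2 unadjusted p = 0.0039 and 0.014). For D3 against FM DESeq2 called 2 of the 121, hsp70.3 (lower) and hsf2bp (higher), and 918 of all 19450 tested genes.

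Among Hsp70 and Hsp110 genes, 13 were tested, with positive values for 8 in SBM against FM, for 6 in D3 against SBM, and for 10 in D3 against FM. The Hsp70 family gene si:ch211-199o1.2, listed in RefSeq under the synonym hspa1b, was at 0.198, 0.0302 and 0.227 CPM in FM, 1.74, 0.947 and 0.144 CPM in SBM, and 0.166, 0.274 and 1.32 CPM in D3, so it was highest in the libraries high in oocyte markers. Its log2 fold change was 2.62 ± 1.14 in SBM against FM (edgeR adjusted p = 0.54), and for si:ch211-199o1.2 without the 2 libraries it was 1.82 ± 0.98 (edgeR adjusted p = 0.63). In the same comparison hsp70.1 had −1.88 ± 0.81 (edgeR adjusted p = 0.54). The 34 tested Hsp70 co-chaperones had medians of 0.01, 0.00 and 0.07. Of these, dnajc21, a J protein of ribosome assembly, had a log2 fold change of 1.26 ± 0.63 in SBM against FM and 1.36 ± 0.63 in D3 against FM (edgeR adjusted p = 0.54 and 0.34). It was at 15.2 CPM in SBM library 1 and 15.7 CPM in D3 library 3, against 4.11 to 5.94 CPM in the other SBM and D3 libraries and 2.69 to 3.99 CPM in FM. Without these 2 libraries the values of dnajc21 were 0.44 ± 0.27 and 0.59 ± 0.26 (edgeR adjusted p = 0.67 and 0.34). Across the 34 co-chaperones in D3 against FM, 6 were lower and 0 higher at an edgeR unadjusted p under 0.05. Of all 19450 tested genes, 1389 were lower and 1565 higher at that threshold, 15.2% in either direction. Groups did not overlap for 7 lower and 2 higher, 26.5% of the list against 26.4% of all tested genes. By direction, 13.6% of all tested genes were lower without overlap and 12.8% higher.

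Among 26 tested Hsp90 co-chaperones, 22 had positive values in D3 against SBM and again 22 in D3 against FM. How many of all tested genes had positive values was not counted. Medians were 0.11 and 0.22, beside 0.03 and 0.04 over all tested genes, and edgeR called none. The gene fkbp5, an Hsp90 partner that glucocorticoids induce, stood at 113 ± 80.6 CPM in D3, 20.1 ± 23.5 CPM in SBM and 27.4 ± 25.2 CPM in FM, with overlap (log2 fold change 2.503 ± 1.18 in D3 against SBM, edgeR adjusted p = 1). Without the 2 libraries highest in oocyte markers, the fkbp5 value in D3 against SBM was 1.95 ± 1.48 (edgeR adjusted p = 0.85). Of the small heat shock proteins 4 other than hspb1 were tested. The lens and muscle alpha-crystallin gene cryabb was at 0, 0.574 and 2.40 CPM in FM, 0.0968, 0.424 and 0 CPM in SBM, and 0.0554, 0.0822 and 0.0719 CPM in D3, so it was high in FM library 3 and overlapped elsewhere. Its log2 fold change in D3 against FM was −3.76 ± 1.63 (edgeR adjusted p = 0.33).

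The mitochondrial chaperones and proteases, with 27 tested genes, had 23 positive values in D3 against SBM and, with FM as the reference, 21. Medians were 0.15 and 0.29, beside 0.03 and 0.04 over all tested genes, and edgeR called none. The share of positive values over all tested genes was not counted. The counts and medians of this list include SBM library 1 and D3 library 3 and were not taken without them. The 2 largest single values in D3 against FM were those of si:ch211-207k7.4 (1.19) and clpb (1.03). Without those 2 libraries they were 0.20 and 0.46. Groups did not overlap for 8 higher and 1 lower in D3 against FM, 33.3% of the list against 26.4% of all tested genes. By direction, 12.8% of all tested genes were higher without overlap and 13.6% lower. The import channel gene timm23b had the largest value in D3 against SBM, 1.23 ± 0.53, from 0.945 ± 0.512 CPM in SBM to 2.204 ± 0.725 CPM in D3 (edgeR adjusted p = 1). Without the 2 libraries highest in oocyte markers the timm23b value was 1.11 ± 0.63. The matrix Hsp70 gene hspa9, the partner of the chaperonin in protein import, was at 152, 115 and 127 CPM in FM, 168, 98.2 and 132 CPM in SBM, and 129, 132 and 167 CPM in D3, and the groups overlapped. It was named for its role after its values were seen. The cytosolic chaperonin TRiC and prefoldin genes, which fold actin and tubulin, had small values: the 14 tested genes had medians of −0.03, 0.10 and 0.11, and the largest single value was 0.26 ± 0.21 for cct7 in D3 against SBM (edgeR adjusted p = 1). Among the other heat shock factors and their regulators 4 were tested. The meiotic gene hsf2bp of that list had log2 fold changes of 4.07 ± 1.56 in SBM against FM and 4.31 ± 1.57 in D3 against FM (edgeR adjusted p = 0.54 and 0.32). These rest on 2, 0 and 2 counts in the FM libraries, against 67, 17 and 6 counts for SBM and 4, 7 and 101 counts for D3, with the libraries high in oocyte markers highest, and without those 2 libraries hsf2bp did not pass the filter on low counts. Endoplasmic reticulum chaperones, a separate compartment, had medians of 0.05, 0.17 and 0.25 over 21 tested genes. The Hsp70 gene of that compartment, hspa5, was at 168, 109 and 177 CPM in FM, 691, 133 and 254 CPM in SBM, and 155, 449 and 495 CPM in D3. SBM library 1 and D3 libraries 2 and 3 were the highest, and the groups overlapped. Its log2 fold change in SBM against FM was 1.25 ± 0.63, and without the 2 libraries highest in oocyte markers the value for hspa5 was 0.38 ± 0.49 (edgeR adjusted p = 0.54 and 0.88).

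The genes closest in pattern to each heat shock gene were found by Pearson's r of log2 CPM over the 9 libraries, a description in which the libraries' shared composition enters. For hsp70l they were eif1b (r = 0.978), a translation initiation factor gene, and ftr14 (0.978), and 383 genes exceeded 0.9. For hsp90ab1 they were the translation elongation factor gene eef1a1l1 (0.979) and the respiratory complex gene ndufa8 (0.976). For hspd1 they were the RNA-binding and splicing genes rbm12b (0.991) and eftud2 (0.988), with 509 genes over 0.9, and for dnajb1b si:dkey-72l14.4 (0.979) and zgc:162509 (0.977), with 347. The gene hspe1 was followed by the proteasome gene psmd8 (0.968) and the splicing gene snrpg (0.954). Fewer genes resembled the rest: 12 exceeded 0.9 for hspb1, led by LOC100331216 (0.950) and vps18 (0.933), and 11 for hspa8, led by krt96 (0.943) and dusp8b (0.930). It was 3 for hsp90aa1.2, led by zgc:56064 (0.933) and prss12 (0.920), and 2 for hsf1, pdx1 (0.962) and LOC110438643 (0.938). Among the members themselves, hspd1 and hspe1 had r = 0.763 over 9 libraries and 0.893 over the 7 without the libraries highest in oocyte markers. For hsp70l and dnajb1b the value was −0.580 over 9 and 0.591 over those 7. The hsf1 level gave r = 0.284 with hsp70l over 9 libraries and 0.785 over the 7. Over the same 7, hsf1 gave 0.935 with hspb1, 0.554 with dnajb1b and 0.449 with hsp90aa1.2. Over all 9 these were 0.698, 0.217 and 0.162. With hspe1 it gave −0.728 over the 7, with hspd1 −0.677, with hspa8 −0.482 and with hsp90ab1 −0.150. Over all 9 those were −0.165, −0.312, −0.685 and −0.254. The 7 libraries still hold the 3 highest in hepatocyte markers.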

How the data were processed

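RNA of 9 zebrafish intestine samples was sequenced, per the labels' protocols from Qiagen RNeasy extracts and a SMARTer mRNA kit. The authors deposited raw gene counts and an FPKM table; its deposited values follow from the counts, the library totals and a single length for each gene, within 0.00014%. Aligner, counter, build, annotation and strand setting were not given in sources used here. Reads of overlapping or antisense genes may therefore be shared. Groups came from the sample titles. Counts were filtered (filterByExpr, minimum count 10; 19450 of 26983 genes kept), scaled by TMM (factors 0.846 to 1.204) and fitted in R 4.3.3 with edgeR 4.0.16 quasi-likelihood tests over all 9 libraries (two-sided, Benjamini-Hochberg over all tested genes, called under 0.05; SE is the log2 fold change over the square root of F). DESeq2 1.42.0 served as an alternative, besides library size scaling, no filter, a replicate block and left-out libraries. The members and lists were chosen with earlier results of these data known. All members are named, with the 2 largest changes of each other list and the 2 genes nearest in pattern eligible for naming. Of 298 listed symbols, 270 matched by symbol, 8 by RefSeq synonym (GRCz12tu) and 20 did not match. Sequences of these genes were not used here.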

Additional observations from a re-analysis of the deposited data

How the results depend on the processing

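No heat shock gene became called under any alternative tried, and DESeq2 gave no adjusted p for hsp70l in SBM against FM. Over all genes, DESeq2 called 238 genes in SBM against FM, with 5 in D3 against SBM and 918 for D3 against FM, where edgeR called 0, and leaving out any 1 library left 0 calls by edgeR. Without the 3 libraries highest in hepatocyte markers edgeR called 2053 in D3 against FM, where the 1 D3 library left, library 3, is the highest in oocyte markers (4203 CPM) and is assumed to vary like the other groups. Of the 121 other tested chaperones in D3 against FM, DESeq2 called 2, beside 918 of all 19450 tested genes, of which 966 had no adjusted p. Of the 27 member log2 fold changes, 9 kept their direction under every alternative and 18 did not. Library size scaling, which moved the median of all genes to 0.26 in SBM against FM and 0.30 in D3 against FM, turned hspa8 (0.23), hspb1 (0.14) and hsf1 (0.17) in SBM against FM, hsp90aa1.2 (0.013) in D3 against SBM, and hsp90ab1 (0.10), hspa8 (0.24) and hsf1 (0.19) in D3 against FM. DESeq2 turned hspa8 to 0.0086 in SBM against FM and 0.025 in D3 against FM, and hsp90aa1.2 to 0.0014 in D3 against SBM, where no filter gave 9e-04. Without the 2 libraries highest in oocyte markers, dnajb1b turned to −0.28 in SBM against FM. That choice also turned hsp90aa1.2 to 0.081 and hsf1 to −0.19 in D3 against SBM, and hsp90ab1 to 0.031, hspa8 to 0.15 and dnajb1b to −0.27 in D3 against FM. Without the 3 highest in hepatocyte markers, hsp90ab1 was −0.26 and hspa8 −0.40 in D3 against SBM, and hsf1 0.039 in D3 against FM. Leaving out each library in turn crossed 0 in SBM against FM for hsp90aa1.2 (−1.16 to 0.081), hspa8 (−0.10 to 0.074), dnajb1b (−0.31 to 0.37) and hspe1 (−0.081 to 0.24). In D3 against SBM it did so for hsp70l (−0.67 to 0.21), hsp90aa1.2 (−0.21 to 0.25), hspa8 (−0.11 to 0.16), dnajb1b (−0.46 to 0.51), hspd1 (−0.10 to 0.70) and hsf1 (−0.12 to 0.074). In D3 against FM it did so for hsp90aa1.2 (−1.16 to 0.077), hsp90ab1 (−0.32 to 0.017), hspa8 (−0.13 to 0.14) and dnajb1b (−0.28 to 0.41). The cause of these turns was not tested. Whether library numbers pair the samples was not settled. Same-numbered deviations correlated at −0.578 to 0.519 across genes and differently numbered ones at −0.651 to 0.708, so these values cannot decide it. With the replicate block edgeR called 0 genes in each comparison and turned 1 of 27 member values, hsp90aa1.2 in D3 against SBM, to 0.042. The biological coefficient of variation in the edgeR fit was 50.5%. Values of dnajc21, hsf2bp, si:ch211-199o1.2, fkbp5 and hspa5 without the 2 libraries highest in oocyte markers were added after seeing the data.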
